A study of Mus musculus with 6 samples.

Results

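The genes described here are the 4 A plexins (*Plxna1* to *Plxna4*), *Plxnc1*, *Plxnd1*, and the 4 class 6 semaphorins (*Sema6a* to *Sema6d*). They are 10 of the 55401 genes in a count table of cultured mouse Schwann cells (SCs), found by their Ensembl identifiers without the version number and the symbols that GENCODE gives them on GRCm38. The libraries come from SCs grown out of dorsal root ganglia (DRGs) of adult mice, 3 cultures from WT mice and 3 from Plxnb1-/- mice, which lack the B plexin Plexin-B1. The mutant allele, Plxnb1tm1Matl, carries a gene trap cassette with a transmembrane segment, lacZ, and neo in the *Plxnb1* locus of every cell of the animal, on a C57BL/6 background. Cultures of both genotypes were grown in forskolin, neuregulin, serum, and ascorbic acid, were passaged several times, and were depleted of fibroblasts with magnetic beads against Thy1. The study's methods also count Plxnb1+/- littermates among its controls, but the labels of the 3 control libraries give them as WT. The labels do not give the sex of the mice or tie the replicate numbers to separate animals, so p-values measure the spread between these cultures. All 10 genes had at least 173 and at most 63837 counts in each library and passed the filter on low counts. All values are from bulk RNA, where fewer cells of a type and less RNA per cell cannot be told apart.

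Plexins are cell surface receptors for semaphorins, a large family of guidance cues first known from growing axons. Class 3 semaphorins are secreted and mostly act through a complex of a neuropilin, which binds the ligand, and an A plexin, which carries the signal, whereas Sema3E can bind Plexin-D1 directly. Class 6 semaphorins span the membrane, bind A plexins on neighboring cells, and can also signal back into the cell that carries them. Inside the cell, plexins act on small GTPases and, through them, on actin and integrins. Plexin-C1 is the receptor of the membrane-anchored Sema7A. In peripheral nerve these cues and receptors are found on axons, glia, vessels, and immune cells.

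The A plexins are close relatives, and the class 6 semaphorins somewhat less so, which matters for how well reads can be assigned to one gene. Coding sequences of 2 A plexins were between 64.3% and 69.3% identical, those of the other plexin pairs between 52.6% and 57.1%, and those of 2 class 6 semaphorins between 53.2% and 60.5%. The longest run of bases shared without a mismatch by transcripts of any pair was 33, between *Plxna1* and *Plxna4*, and between class 6 semaphorins it was at most 19. The following 60 bases are the most alike stretch of the 4 A plexins within 1 coding exon, with capitals for the 49 bases that all 4 share and lower case for the rest. On GRCm38 they lie in exon 24 of *Plxna1* (chr6:89324595-89324654, minus strand), exon 24 of *Plxna2* (chr1:194799807-194799866, plus strand), exon 25 of *Plxna3* (chrX:74339274-74339333, plus strand), and exon 24 of *Plxna4* (chr6:32181843-32181902, minus strand).
Plxna1: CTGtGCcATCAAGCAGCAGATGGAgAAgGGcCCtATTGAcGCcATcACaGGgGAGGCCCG
Plxna2: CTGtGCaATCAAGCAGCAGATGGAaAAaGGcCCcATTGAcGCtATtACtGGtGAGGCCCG
Plxna3: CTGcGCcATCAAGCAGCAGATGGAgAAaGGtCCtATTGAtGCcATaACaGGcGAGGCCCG
Plxna4: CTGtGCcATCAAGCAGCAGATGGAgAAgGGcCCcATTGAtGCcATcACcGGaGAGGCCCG

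Even in this most conserved stretch each A plexin differs from the other 3 in several places. Among class 6 semaphorins the search left out *Sema6a*, although *Sema6a* and *Sema6d* were the most alike pair (60.5% identical). Over *Sema6b* (chr17:56128336-56128395, minus strand, exon 10), *Sema6c* (chr3:95169236-95169295, plus strand, exon 12), and *Sema6d* (chr2:124657716-124657775, plus strand, exon 10) the search gave 60 bases of which 44 are the same in all 3, again in capitals.
Sema6b: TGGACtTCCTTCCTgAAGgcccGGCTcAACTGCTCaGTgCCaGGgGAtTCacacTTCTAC
Sema6c: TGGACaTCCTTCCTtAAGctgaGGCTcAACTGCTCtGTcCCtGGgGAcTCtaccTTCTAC
Sema6d: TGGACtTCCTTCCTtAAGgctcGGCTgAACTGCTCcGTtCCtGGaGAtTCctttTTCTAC

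The libraries held 59252048 to 77280964 counts each, and 3 counts correspond to between 0.0383 and 0.0512 CPM (counts per 1000000, the count divided by the library's total and by its TMM factor, a correction for composition), a floor that covers counting error only. *Plxnb1* itself, the gene that the genotype targets, measured 61.8, 45.4, and 96.4 CPM in WT replicates 1 to 3 and 13.1, 16.6, and 18.5 CPM in Plxnb1-/- replicates 1 to 3. Every Plxnb1-/- culture was thus below every WT culture, with a log2 fold change of −2.08 (SE 0.25, adjusted p = 0.0449 in the quasi-likelihood test of edgeR, with Benjamini-Hochberg adjustment over all 22318 genes tested). The adjusted p rose to 0.0812 without WT replicate 1, and to 0.246, 0.254, and 0.12 without Plxnb1-/- replicates 1, 2, and 3. It was 0.00137 without WT replicate 2 and 0.0301 without WT replicate 3. By DESeq2 with all libraries the adjusted p was 2.8e-06. Over all genes the test called 8, or 0.0358% of those tested, where a call needed an adjusted p under 0.05 and a log2 fold change over 0.25 in size, and DESeq2, the tool of the study, called 335, or 1.5%.

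None of the 10 plexin and semaphorin genes was called between the genotypes, 0 of 10 by edgeR and 0 of 10 by DESeq2. The lowest adjusted p was 0.345 by edgeR and 0.197 by DESeq2. At an unadjusted p below 0.05 the edgeR test passed 2 of the 10, *Sema6a* and *Sema6d*, beside 13.7% of all genes, and DESeq2 passed 2, beside 11.9%. The 95% intervals of the 10 fold changes ran from 0.756-fold at the lowest bound to 1.40-fold at the highest, so that a change beyond these bounds lies outside the interval of each gene. In all 10 genes the CPM ranges of the genotypes overlapped, whereas they did not overlap in 19.7% of all genes tested. With CPM on the total count alone, without the TMM factor, 2 of the 10 did not overlap, *Plxnd1* and *Sema6a*, beside 20.1% of all genes. The log2 fold change was above 0 in 9 of the 10 (51.5% of all genes), with a median of 0.14 (0.0050 over all genes).

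**Figure D1:**
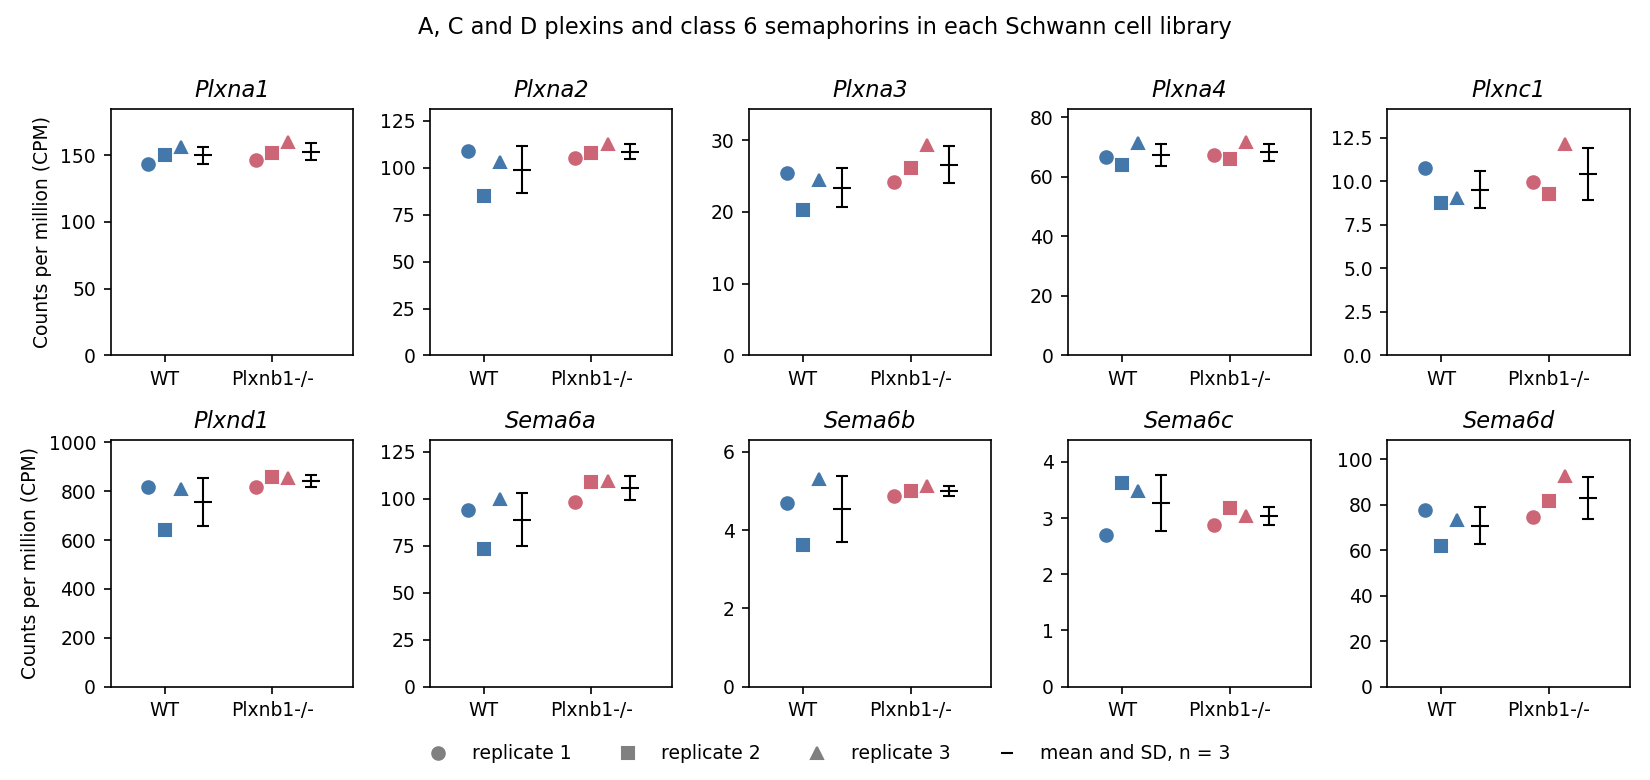
CPM (linear axes that start at 0) of the 10 genes in each of the 6 Schwann cell libraries, WT in blue and Plxnb1-/- in red, with the marker shape giving the replicate number and the bar the mean and SD of 3 libraries. The genotypes overlap in every panel, and WT replicate 2 (blue square) is the lowest library in 8 of the 10, *Plxna1* and *Sema6c* being the exceptions.

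Among the A plexins, *Plxna1*, a signaling partner of neuropilins that also binds Sema6D, lies on chromosome 6 (89316314 to 89362620, minus strand). It measured 144, 150, and 156 CPM in WT replicates 1 to 3 and 146, 152, and 160 CPM in Plxnb1-/- replicates 1 to 3. Its libraries were the most even of the 10 genes relative to their mean, and its log2 fold change was 0.03 (95% interval −0.08 to 0.14, adjusted p = 0.848 from edgeR). *Plxna4*, which binds Sema6A and Sema6B and works with neuropilins in sensory and sympathetic axons, lies on the same chromosome (32144268 to 32588192, minus strand). It measured 66.6, 63.9, and 71.3 CPM in WT and 67.3, 66.0, and 71.6 CPM in Plxnb1-/- cultures, a log2 fold change of 0.02 (−0.10 to 0.14, adjusted p = 0.896 from edgeR). For both genes replicate 3 was the highest library of each genotype, and the differences between replicates were larger than the difference between genotypes.

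The other 2 A plexins spread more widely. *Plxna2*, a receptor of Sema6A on chromosome 1 (194618218 to 194816869, plus strand), measured 109, 85.0, and 103 CPM in WT and 105, 108, and 113 CPM in Plxnb1-/- cultures. Its log2 fold change of 0.13 (−0.05 to 0.32, adjusted p = 0.508 from edgeR) was 0.04 without WT replicate 2 and 0.21 without WT replicate 1. *Plxna3*, which serves Sema3F together with neuropilin-2 and lies on chromosome X (74329066 to 74344689, plus strand), measured 25.5, 20.2, and 24.5 CPM in WT and 24.2, 26.1, and 29.4 CPM in Plxnb1-/- cultures. Its log2 fold change of 0.18 (−0.04 to 0.40, adjusted p = 0.444 from edgeR) was 0.09 without WT replicate 2 and 0.11 without Plxnb1-/- replicate 3, its lowest and its highest library. In both genes WT replicate 2 was the lowest of all 6 libraries, and WT replicate 1 lay above Plxnb1-/- replicate 1.

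*Plxnd1*, the receptor of Sema3E best known from blood vessels, had the most counts of the 10 genes. It lies on chromosome 6 (115954811 to 115995005, minus strand) and measured 817, 642, and 810 CPM in WT and 816, 857, and 856 CPM in Plxnb1-/- cultures. WT replicate 1 lay just above and WT replicate 3 just below the lowest Plxnb1-/- culture, and the log2 fold change was 0.16 (−0.04 to 0.35, adjusted p = 0.450 from edgeR) with all libraries and 0.06 without WT replicate 2. *Plxnc1*, the Sema7A receptor on chromosome 10 (94790866 to 94944835, minus strand), measured 10.7, 8.75, and 9.07 CPM in WT and 9.95, 9.26, and 12.1 CPM in Plxnb1-/- cultures. The highest value was that of Plxnb1-/- replicate 3 and the next that of WT replicate 1, and the log2 fold change was 0.13 (−0.13 to 0.40, adjusted p = 0.645 from edgeR). Without Plxnb1-/- replicate 3 it was 0.01, without WT replicate 1 it was 0.23, without Plxnb1-/- replicate 2 it was 0.21, and without WT replicate 2 it was 0.08.

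The class 6 semaphorins held the largest differences among the 10 genes. *Sema6a*, a ligand of Plexin-A2 and Plexin-A4 on chromosome 18 (47235598 to 47368870, minus strand), measured 94.0, 73.0, and 99.7 CPM in WT and 98.3, 109, and 110 CPM in Plxnb1-/- cultures. WT replicate 3 lay above Plxnb1-/- replicate 1, so the genotypes overlapped by this pair alone. Its log2 fold change was 0.25 (0.02 to 0.48, unadjusted p = 0.0390, adjusted p = 0.345 from edgeR) and 0.13 (0.0044 to 0.25, adjusted p = 0.544) without WT replicate 2. *Sema6d*, a ligand of Plexin-A1 on chromosome 2 (124089969 to 124667770, plus strand), measured 77.6, 62.0, and 73.1 CPM in WT and 74.7, 81.8, and 92.8 CPM in Plxnb1-/- cultures. Here WT replicate 1 lay above Plxnb1-/- replicate 1, and the log2 fold change was 0.23 (0.01 to 0.44, unadjusted p = 0.0410, adjusted p = 0.348 from edgeR) and 0.14 (−0.03 to 0.32, adjusted p = 0.648) without WT replicate 2, and it was 0.14 without Plxnb1-/- replicate 3 as well. By DESeq2 the adjusted p was 0.197 for *Sema6a* and 0.218 for *Sema6d*.

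The remaining 2 class 6 semaphorins were measured at low counts. *Sema6b*, which binds Plexin-A2 and Plexin-A4 and lies on chromosome 17 (56123085 to 56140343, minus strand), had 212 to 381 counts per library. It measured 4.69, 3.62, and 5.30 CPM in WT and 4.87, 5.01, and 5.12 CPM in Plxnb1-/- cultures, so that the WT cultures held both the lowest and the highest value (log2 fold change 0.14, interval −0.17 to 0.44, adjusted p = 0.689 from edgeR, 0.0045 without WT replicate 2, and 0.27 without WT replicate 3). *Sema6c*, on chromosome 3 (95160457 to 95174024, plus strand), had 173 to 246 counts per library and was the single gene with a log2 fold change below 0. It measured 2.70, 3.62, and 3.47 CPM in WT and 2.88, 3.19, and 3.04 CPM in Plxnb1-/- cultures, with all 3 Plxnb1-/- values inside the WT range (log2 fold change −0.11, interval −0.40 to 0.19, adjusted p = 0.764 from edgeR). With 1 library left out it lay between −0.22, without WT replicate 1, and −0.02, without WT replicate 2, and was −0.07 without Plxnb1-/- replicate 1 and −0.06 without WT replicate 3. For single genes, the exact two-sided permutation test on mean log2 CPM gave p between 0.2 and 0.7 in the 10 genes, where 3 cultures against 3 cannot go below 0.1.

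**Figure D2:**
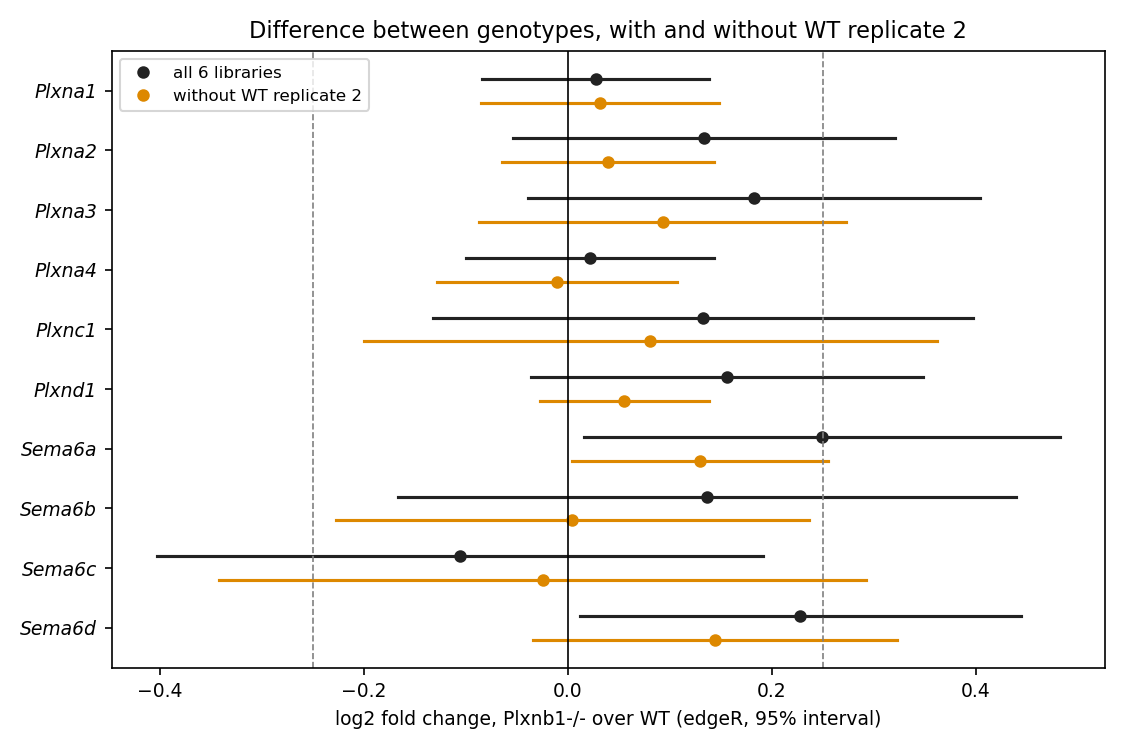
Log2 fold change of Plxnb1-/- over WT for the 10 genes (horizontal axis, edgeR), with all 6 libraries in black and without WT replicate 2 in orange. Points are estimates, lines are 95% intervals, and dashed lines mark the cutoff of 0.25. With all libraries 8 intervals hold 0, and without WT replicate 2 the estimates lie between −0.02 and 0.14.

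WT replicate 2 was the lowest of the 6 libraries in 8 of the 10 genes, compared with 27.0% of all genes tested. Without it 8 of the 10 log2 fold changes were above 0 (53.0% of all genes), the median fell from 0.14 to 0.05, *Plxna4* turned to −0.01, and 1 gene, *Sema6a*, kept an unadjusted p below 0.05 (8.99% of all genes). Without WT replicate 1, in contrast, the median was 0.21, and without Plxnb1-/- replicate 3, the highest library in 7 of the 10 genes (20.4% of all genes), 7 were above 0 (51.8% of all genes) and *Plxna1* and *Plxna4* turned to −0.0054 and −0.013. None of the 10 genes was called by edgeR in any of these fits, in which the test without WT replicate 2 called 0.11% of all genes.

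Markers of SCs were low in the same library. The 12 SC markers, all detected, summed to 3503, 2947, and 3509 CPM in WT and 3558, 3989, and 4092 CPM in Plxnb1-/- replicates 1 to 3, and 10 of the 12 were lowest in replicate 2 among the WT cultures (37.6% of all genes). Their log2 fold changes were above 0 in 11 of 12, with a median of 0.19 (0.15 without WT replicate 2), and none was called. By CPM, without regard to length, the lowest of them was *S100b*, a calcium-binding protein (7.55 ± 0.59 CPM in WT and 7.65 ± 0.06 in Plxnb1-/- cultures, SD, n = 3). The 8 fibroblast markers summed to 1435, 2038, and 1670 CPM in WT and 1475, 1558, and 1579 CPM in Plxnb1-/- cultures, with the highest sum in WT replicate 2, where 6 of the 8 were the highest among WT cultures (37.0% of all genes). They ran from *Clec3b* (0.067 ± 0.0042 CPM in WT and 0.064 ± 0.017 in Plxnb1-/- cultures) to *Col15a1*, a basement membrane collagen (793 ± 131 and 753 ± 59.6). Log2 fold changes of the fibroblast markers were above 0 in 1 of 8 (51.5% of all genes). Their median was −0.096 (−0.0015 without WT replicate 2), and none was called. *Thy1*, the target of the depletion, measured 429, 652, and 490 CPM in WT and 410, 409, and 384 CPM in Plxnb1-/- cultures. The cultures therefore hold RNA of SC and of fibroblast marker genes in both genotypes, and the part of either in the values of the plexins and semaphorins was not tested.

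Markers of other cells that DRG cultures may hold were detected too. Endothelial markers, 9 of 9 detected, summed to 84.0 to 109 CPM in WT and 87.2 to 93.6 CPM in Plxnb1-/- cultures, from *Cldn5* (0.19 ± 0.18 and 0.075 ± 0.045) to *Cdh5* (59.9 ± 8.17 and 57.6 ± 2.62), a cadherin of vessels, where *Plxnd1* is also known to be expressed. Macrophage markers (9 of 9) summed to 47.1 to 54.0 CPM in WT and 55.4 to 65.7 CPM in Plxnb1-/- cultures, from *Aif1* (0.37 ± 0.16 and 0.61 ± 0.092) to *Csf1r* (14.0 ± 0.61 and 16.5 ± 0.79). Mural cell markers (8 of 8) summed to 1064 to 1337 CPM and 1043 to 1088 CPM. Most of it was *Pdgfrb* (643 ± 82.0 and 588 ± 14.3) and *Cspg4* (418 ± 65.0 and 341 ± 31.1), with *Des* the lowest (2.66 ± 0.16 and 2.00 ± 0.21). Neuronal markers (9 of 9) summed to 112 to 131 CPM and 124 to 137 CPM, most of it *Uchl1* (106 ± 10.2 and 108 ± 2.22), with *Isl1* the lowest (0.12 ± 0.091 and 0.32 ± 0.16). Satellite glia markers (5 of 5) summed to 982 to 1124 CPM and 1180 to 1196 CPM. Most of it was *Kcnj10* (704 ± 58.7 and 787 ± 13.6), with *Slc1a3* the lowest (0.85 ± 0.077 and 1.39 ± 0.30). *Cdh19* (234 ± 13.7 and 268 ± 7.07) is also on the SC list, so its counts enter both sums. None of these markers was called by edgeR, and no marker was at 0 in all libraries. DESeq2 called 1 of them (1.5% of all genes), the macrophage gene *C1qb* (log2 fold change 0.38, adjusted p = 0.0219). Log2 fold changes were above 0 in 9 of 9 macrophage, 8 of 9 neuronal, and 5 of 5 satellite glia markers (51.5% of all genes). They were above 0 in 5 of 8 mural and 2 of 9 endothelial markers.

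Each gene was also set against *Sox10*, a transcription factor that SC development requires, which measured 503, 432, and 524 CPM in WT and 507, 564, and 580 CPM in Plxnb1-/- cultures. This ratio of counts was chosen after the low SC markers of WT replicate 2 had been seen. It lowers the log2 difference of every gene alike by that of *Sox10* itself (0.18 by edgeR), so the direction of single genes on it was not read. The genotypes overlapped in all 10 genes (they did not in 21.3% of all genes), and the smallest p of the exact two-sided permutation test was 0.2.

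**Figure D3:**
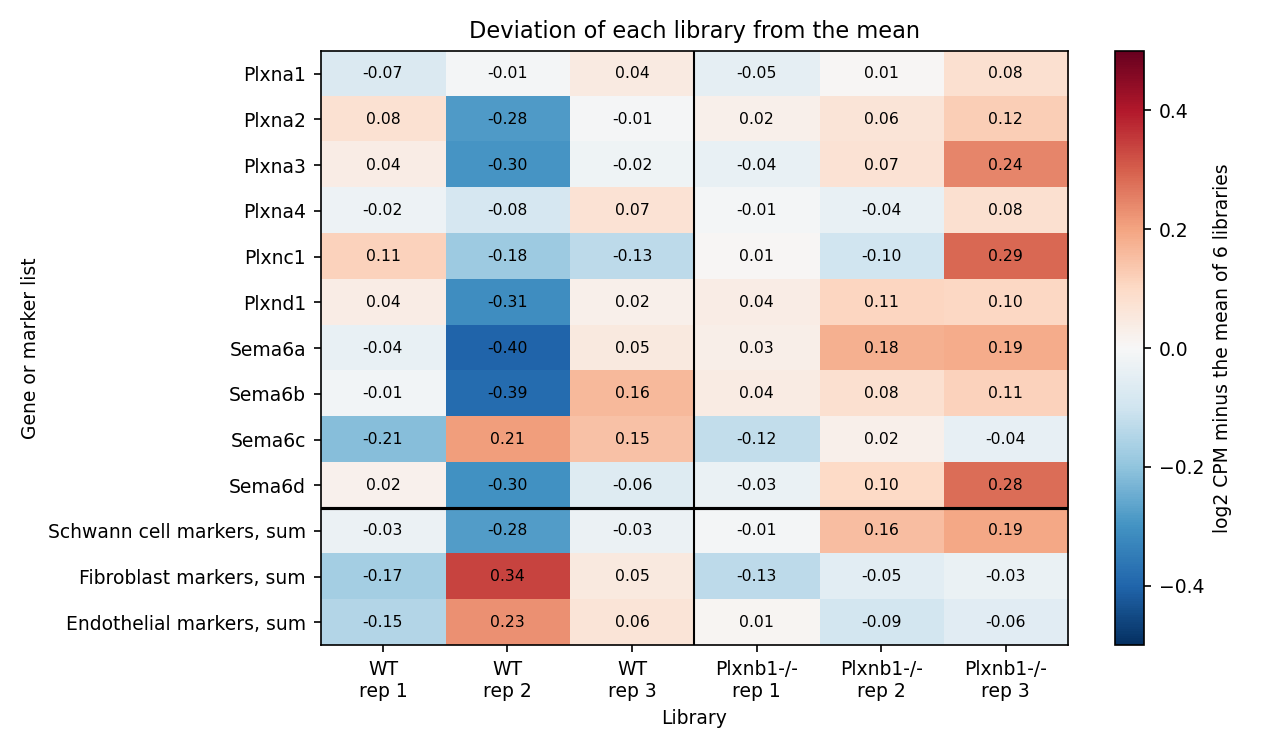
Difference of each library's log2 CPM from the mean of the 6 libraries (color and printed value, blue below and red above the mean) for the 10 genes and, below the line, for the summed Schwann cell, fibroblast, and endothelial markers. Columns are WT and Plxnb1-/- replicates. WT replicate 2 is below the mean in 9 of the 10 genes and in the Schwann cell markers, and above it in *Sema6c* and in the fibroblast and endothelial markers.

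The genes differed from each other far more than the genotypes did. Levels of different genes were compared as CPM per kilobase of exon, with all exons of a gene merged, as the mean ± SD of the 6 libraries. On this scale *Plxnd1* stood first at 109 ± 10.9, followed by *Plxna1* at 16.7 ± 0.65 and *Sema6a* at 11.1 ± 1.53. *Sema6d* at 7.29 ± 0.96, *Plxna2* at 6.04 ± 0.57, *Plxna4* at 4.80 ± 0.22, and *Plxna3* at 3.17 ± 0.38 formed the middle of the order. *Sema6b* at 1.20 ± 0.15, *Plxnc1* at 1.20 ± 0.15, and *Sema6c* at 0.53 ± 0.06 came last, 206-fold below *Plxnd1* for the last of them.

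Most neighbors in this order kept it in every library. In 8 of the 9 neighboring pairs the higher gene was higher in 6 of 6 libraries, with p = 0.03125 by the exact two-sided sign-flip permutation test within libraries, the smallest that 6 libraries can give, and 0.0352 after adjustment over the 9 pairs. The order was taken from the same values that were tested. The gap was widest between *Plxnd1* and *Plxna1* (6.53-fold) and narrowest among the 8 between *Sema6d* and *Plxna2* (1.20-fold). *Sema6b* and *Plxnc1* did not differ beyond their spread, since each was higher in 3 of 6 libraries (exact permutation p = 0.9375, log2 difference 0.0059 ± 0.20, SD, n = 6). The ranges over libraries overlapped between *Sema6a* and *Sema6d*, *Sema6d* and *Plxna2*, and *Plxna2* and *Plxna4*, although each library kept their order.

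**Figure D4:**
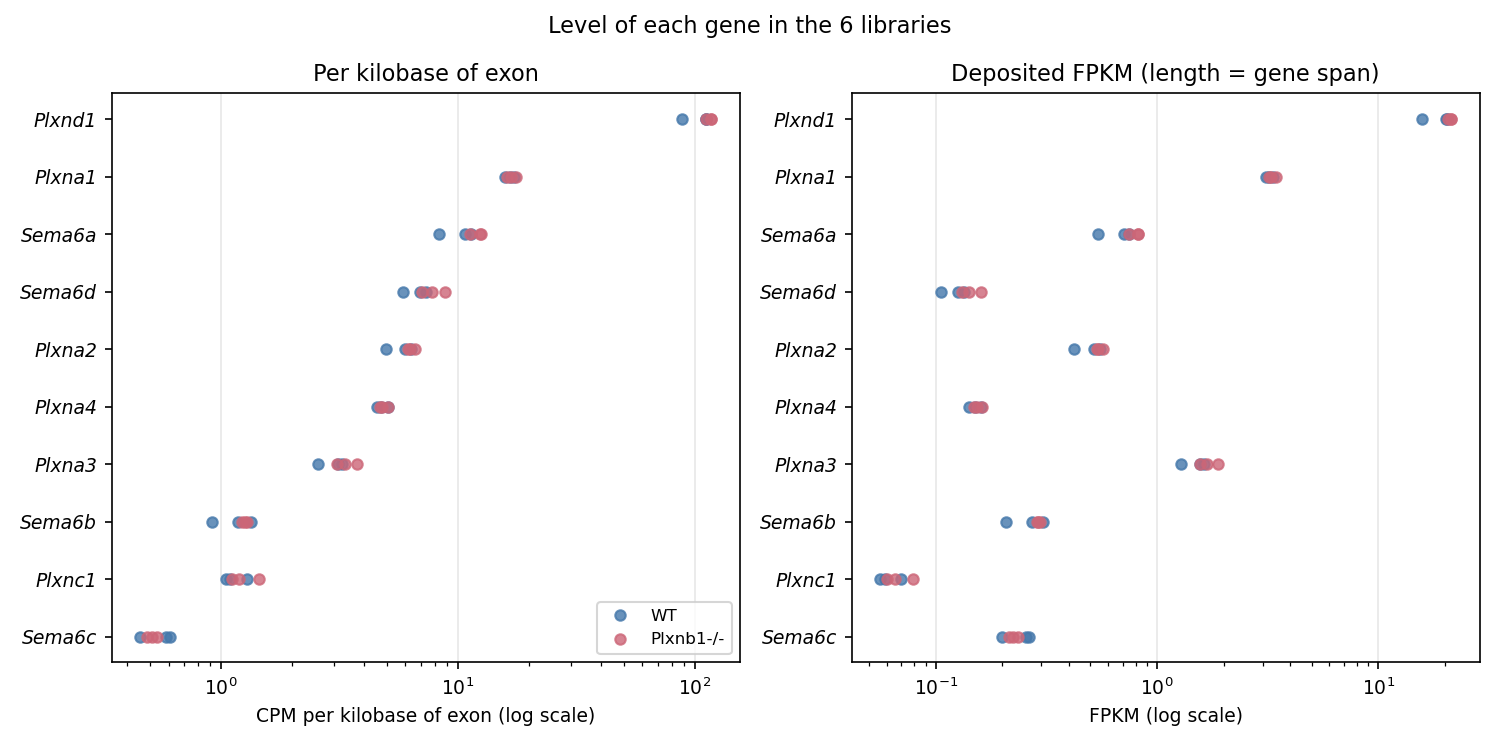
Level of the 10 genes in each library (points, WT blue, Plxnb1-/- red), left as CPM per kilobase of exon and right as the deposited FPKM, both on log scales and with the genes in the order of the left panel. *Plxnd1* leads on both, while *Sema6d* moves from the fourth place to the ninth and *Plxna3* from the seventh to the third.

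The order rests on the length by which counts are divided. It also rests on an alignment that does not span introns and on reads with duplicates removed. The effect of either on these levels was not tested. For all 10 genes the length behind the deposited FPKM (fragments scaled by gene length and depth) equaled the whole stretch of the gene on the chromosome, introns included. *Sema6d* spans 577802 bases, of which exons are 1.83%, and dropped from the fourth place by exon length to the ninth by FPKM (0.133 ± 0.018, SD, n = 6). *Plxna3* spans 15624 bases, of which exons are 50.4%, and moved from the seventh place to the third (1.60 ± 0.19 FPKM). *Plxnd1*, *Plxna1*, and *Plxna2* kept their places, and the other 7 moved. With the longest transcript as the length, only *Sema6b* and *Plxnc1* changed places.

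*Plxnd1* was also the most abundant of all 9 plexins on the exon scale. The 9 plexins, with the 3 B plexins included, summed to 229 ± 24.7 CPM per kilobase in WT and 248 ± 10.7 in Plxnb1-/- cultures (SD, n = 3). *Plxnd1* made up 45.2 ± 1.18% of this sum in WT and 46.5 ± 0.94% in Plxnb1-/- cultures. The shares of *Plxna1* were 7.29 ± 0.88% and 6.79 ± 0.071%, those of the other 3 A plexins together with *Plxnc1* were each below 3% in every library, and *Plxnb1* held 3.05 ± 0.94% and 0.67 ± 0.088%. The B plexins *Plxnb2* and *Plxnb3* held 26.3 ± 1.62% and 11.8 ± 1.00% in WT and 24.7 ± 0.50% and 15.0 ± 1.1% in Plxnb1-/- cultures. The 4 A plexins summed to 30.0 ± 1.38 CPM per kilobase in WT and 31.4 ± 1.46 in Plxnb1-/- cultures, and the 4 class 6 semaphorins to 18.5 ± 2.45 and 21.7 ± 1.58. Both sums overlapped between the genotypes.

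Annotated exons of other genes overlap those of 3 of the 10. *Plxna1* shares 970 exon bases, 10.7% of its exon length, with the antisense gene *Gm26811*, which measured 13.4 to 15.8 CPM. *Plxna4* shares 110 bases (0.78%) with the antisense *Plxna4os3*, and *Plxnc1* shares 115 bases (1.38%) with *Gm48718* on its own strand, both below 1 CPM in every library. The strand setting of the counting is not given in the sources used here, so the part of the antisense genes in these counts was not tested. The other 7 genes overlap no annotated exon of another gene.

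The genes around these receptors and ligands were taken as 6 lists with 58 genes, all tested. The lists were chosen with earlier results of these data known. Shares above those of all genes are therefore not read as a result. edgeR called 0 of the 58 (0.0358% of all genes), with 23 at an unadjusted p below 0.05 (13.7% of all genes) and a lowest adjusted p of 0.199, and DESeq2 called 6 (1.5% of all genes), 3 higher (0.695%) and 3 lower (0.807%). The log2 fold change was above 0 in 30 and below 0 in 28, with a median of 0.0092. All 6 that DESeq2 called had genotypes that did not overlap, as had 19.7% of all genes tested. This is not separate evidence, since the calls rest on the same libraries. The same 6 passed in edgeR when every gene with any count was kept (0.949% of all genes). None of the 58 was called in any other alternative fit.

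Class 3 semaphorins and neuropilins (9 genes) held 3 of the 6. *Sema3b*, a secreted ligand, measured 418, 378, and 422 CPM in WT and 483, 576, and 574 CPM in Plxnb1-/- cultures (log2 fold change 0.42, SE 0.08, adjusted p = 0.199 by edgeR and 1.0e-04 by DESeq2). It lies on chromosome 9 from 107597674 to 107609229, the chromosome that also carries *Plxnb1* (109095389 to 109119917). *Sema3f*, of the same list, lies there too (107681500 to 107710475), and its genotypes overlapped (−0.13, SE 0.10, adjusted p = 0.592 by edgeR). Any part of position in these values was not tested. *Sema3g*, another secreted ligand, measured 366, 262, and 372 CPM in WT and 420, 432, and 468 CPM in Plxnb1-/- cultures (0.40, SE 0.12, adjusted p = 0.283 by edgeR and 0.0296 by DESeq2). *Sema3b* and *Sema3g* were higher in all 3 Plxnb1-/- cultures than in any WT culture. *Sema3e*, the ligand of Plexin-D1, measured 42.5, 45.3, and 38.6 CPM in WT and 34.6, 32.3, and 30.2 CPM in Plxnb1-/- cultures (−0.38, SE 0.07, adjusted p = 0.228 by edgeR and 0.00182 by DESeq2). It was lower in all 3 Plxnb1-/- cultures, and unlike its receptor it was highest in WT replicate 2. Without that library the log2 fold changes of *Sema3b*, *Sema3g*, and *Sema3e* were 0.38, 0.26, and −0.32.

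Among the other membrane-bound ligands (5 genes, 3 above 0 and 2 below) none was called by either tool. The largest log2 fold changes there were those of *Sema5b* (0.45, SE 0.39, adjusted p = 0.645 by edgeR, 0.35 ± 0.19 CPM in WT and 0.48 ± 0.15 in Plxnb1-/- cultures) and *Sema5a* (−0.12, SE 0.09, adjusted p = 0.587). With 1 library left out *Sema5b* lay between 0.18 (without Plxnb1-/- replicate 3) and 1.01 (without WT replicate 3), at 0.20 without WT replicate 1 and 0.28 without WT replicate 2. *Sema5a* was −0.03 without WT replicate 2 and −0.19 without WT replicate 1. Co-receptors (9 genes, 7 above 0, median 0.28, and 0.25 without WT replicate 2) included *Chl1*, an adhesion molecule that couples neuropilin-1 to A plexins. It measured 356, 284, and 326 CPM in WT and 414, 427, and 479 CPM in Plxnb1-/- cultures (0.45, SE 0.09, adjusted p = 0.228 by edgeR and 2.3e-04 by DESeq2), with every Plxnb1-/- culture above every WT culture. The lowest log2 fold change among the co-receptors was that of *Kdr*, a VEGF receptor that is also on the endothelial list (−0.33, SE 0.16, adjusted p = 0.404 by edgeR), which was −0.19 without WT replicate 2 and −0.20 without Plxnb1-/- replicate 3.

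Inside the cell, GTPases and their regulators (15 genes) had 4 log2 fold changes above 0 and 11 below, with a median of −0.06. *Rnd1*, a GTPase that binds the cytoplasmic part of plexins, measured 2.75, 2.43, and 2.44 CPM in WT and 1.52, 1.70, and 1.12 CPM in Plxnb1-/- cultures (−0.81, SE 0.16, adjusted p = 0.255 by edgeR and 0.00606 by DESeq2). This is a low level but far above the floor of 3 counts, and the genotypes did not overlap. Its relative *Rnd3* had the highest log2 fold change of the list (0.26, SE 0.07, adjusted p = 0.273 by edgeR and 0.0584 by DESeq2). Kinases and cytoskeletal effectors (16 genes, 10 above 0, median 0.03) ranged from *Mical2*, an actin-oxidizing enzyme (−0.27, SE 0.10, adjusted p = 0.301 by edgeR), to *Dpysl2*, a collapsin response mediator protein (0.24, SE 0.08, adjusted p = 0.289 by edgeR), and neither tool called any. Without WT replicate 2 *Mical2* was at −0.14.

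The last list holds 4 partners of the cytoplasmic tails of class 6 semaphorins and related actin regulators. *Enah*, an actin polymerase of the Ena/VASP family, measured 89.7, 124, and 92.0 CPM in WT and 79.9, 72.0, and 62.7 CPM in Plxnb1-/- cultures (−0.51, SE 0.13, adjusted p = 0.273 by edgeR and 0.00619 by DESeq2). All Plxnb1-/- cultures were below all WT cultures, WT replicate 2 was the highest, and without it the log2 fold change was −0.34. *Src*, a tyrosine kinase, had the highest log2 fold change of this list (0.05, SE 0.05, adjusted p = 0.730 by edgeR, and between 0.01 without Plxnb1-/- replicate 2 or WT replicate 2 and 0.08 without Plxnb1-/- replicate 1 or WT replicate 3). Among the B plexins, beside *Plxnb1*, *Plxnb3* was higher in every Plxnb1-/- culture (200, 140, and 188 CPM in WT and 213, 248, and 268 CPM in Plxnb1-/- cultures, log2 fold change 0.47, SE 0.13, adjusted p = 0.273 by edgeR and 0.0143 by DESeq2), and without WT replicate 2 its log2 fold change was 0.33.

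**Figure D5:**
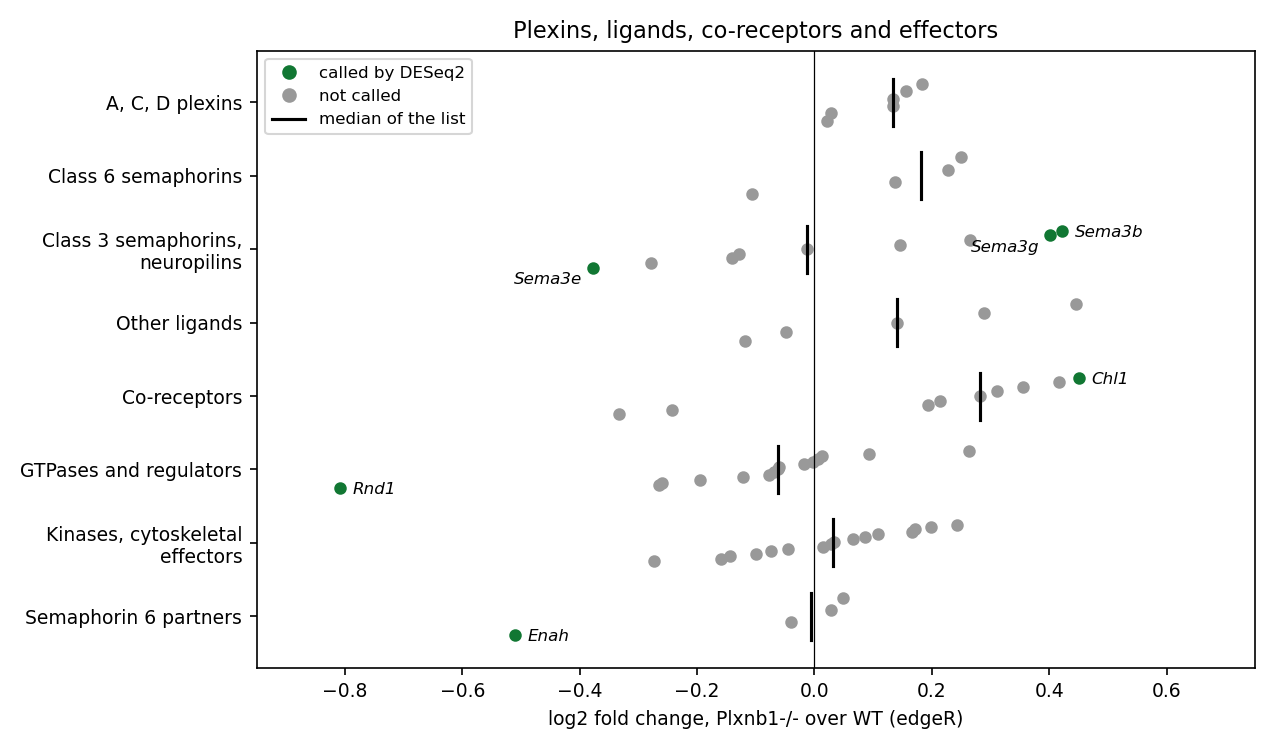
Log2 fold change of Plxnb1-/- over WT (horizontal axis, edgeR) for every gene of 8 lists, with each point 1 gene, green where DESeq2 called it and gray otherwise, and a bar at the median of the list. The 10 plexin and semaphorin genes of the top 2 rows lie between −0.11 and 0.25 with none called, and the 6 called genes are *Sema3b*, *Sema3g*, *Sema3e*, *Chl1*, *Rnd1*, and *Enah*.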

How the data were processed

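The authors trimmed the reads with Trim Galore 0.6.5, aligned them to mm10 with Bowtie2 2.4.1, which does not span introns, removed duplicates with SAMtools 1.10, and counted reads per gene with featureCounts and a GENCODE annotation. The deposited values are raw counts on exons per gene, without normalization, and FPKM values that the authors computed from them with the gene span as length. Read length and strand setting are not given in the sources used here. No reads were aligned again.

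The filter asked for 2 or more counts in 5 or more libraries and left 22318 genes, after the study's methods. Genotypes were compared with edgeR 4.0.16 under R 4.3.3 (TMM factors, quasi-likelihood test, genotype alone in the model, Benjamini-Hochberg adjustment over all tested genes). DESeq2 1.42.0, limma 3.58.1 on log2 FPKM, other scalings and filters, a replicate block, and each library left out in turn were the alternatives. The edgeR and DESeq2 fits were also run on simulated counts. The planted fold changes were larger than those of the 10 members, so detection of changes of their size was not tested. Permutation tests used SciPy 1.17.1 and Python 3.11.15. Same-numbered replicates deviated little together (r of −0.02, 0.0078, and 0.07 over genes), and only for replicate 3 was the own number the best match. The main fit did not pair the cultures by number. This check cannot tell whether they were prepared in pairs. Exon lengths and sequences are from a GENCODE release of GRCm38 older than that of the authors, and coding sequences of the longest coding transcripts were aligned with MAFFT 7.526. Named are the 10 members, *Plxnb1*, genes of the lists called by edgeR or DESeq2, the highest and lowest fold change of each list, and the highest and lowest marker of each marker list, of which 1 is not reported here; *Sox10* and *Plxnb3* among others were named after their values were seen. The members and lists were chosen with earlier results of these data known.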

Additional observations from a re-analysis of the deposited data

How the results depend on the processing

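In 147 of 150 pairs of 1 of the 10 genes and 1 of 15 alternative fits, direction and side of the threshold were those of the report. The other 3 turned, *Plxna1* to −0.0054 and *Plxna4* to −0.013 without Plxnb1-/- replicate 3 and *Plxna4* to −0.01 without WT replicate 2, and with 1 library left out these genes reached at most 0.057 and 0.066, both without WT replicate 3. The count of the 10 genes called was 0 in every fit, with the replicate block too. With CPM on the total count, 2 of the 10, *Plxnd1* and *Sema6a*, had genotypes that did not overlap, where TMM scaling gave 0. Of the 58 list genes, 6 were called by DESeq2 and 6 without the filter on low counts (all genes with any count), and 0 in the other fits. Directions of list genes turned in 17 of 870 pairs, none of them in a gene named in the report. The replicate block called 5 of all genes against 8 without it, limma 3, DESeq2 335, edgeR without the filter 296, and fits without 1 library 4 to 25, the most without WT replicate 2. *Plxnb1* had an adjusted p of 0.22 with edgeR's robust dispersion, 0.0715 with edgeR's own filter, and between 0.413 and 0.414 with limma. In edgeR that value was 0.0271 with the replicate block and 8.2e-06 without the filter on low counts. With 1 library left out, 0 of the 9 neighboring pairs passed in place of 8, because 5 libraries cannot give a p below 0.0625 in the sign-flip test. Apart from that, the cause of these changes was not tested. The genes with the fewest counts, *Sema6b*, *Sema6c*, and *Plxnc1*, had the widest intervals of the 10.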
